A study of Caenorhabditis elegans with 11 samples.

Results

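Alternative 3' splice site (A3SS) events on the autosomes whose affected exon is shorter than 200 bases were followed through depletion of SACY-1 in the soma and in the germline of C. elegans. The authors' deposited splicing table lists 3096 events, of which 1618 are A3SS events. Events on chromosome X (165) and autosomal events with exons of 200 bases or more (756) were set aside, which left 697 short-exon events. The choice used event type, chromosome and exon length, and no measured splicing value. The affected exons were 17 to 199 bases long, with a median of 127.

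An intron ends at an acceptor, an AG that the spliceosome finds downstream of the branch point with the help of a factor bound to the pyrimidines before it. Where a pair of acceptors lies close together at the end of an intron, the upstream one gives the longer exon and the downstream one the shorter exon. In coding sequence, the choice adds or removes a few amino acids, or shifts the reading frame. At such adjacent pairs, samples rich in C. elegans germline have been described as using the upstream acceptor more than somatic ones. SACY-1 is the worm counterpart of human DDX41, a DEAD-box helicase found in spliceosomes.

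Poly(A)+ RNA came from lysates of whole young adult worms, all kept on 2 mM auxin for 24 hours at 20 °C. The soma controls (strain CA1200, 2 samples, replicates 1 and 3) carried the transgene ieSi57, which expresses TIR1, the plant receptor that sends degron-tagged proteins to the proteasome, from the somatic eft-3 promoter, together with unc-119(ed3). The soma-depleted worms (DG4703, 3 samples) carried ieSi57 and sacy-1(tn1880), an allele that adds an auxin-inducible degron, GFP and Myc to SACY-1. The germline controls (CA1352, 3 samples) carried ieSi64, with TIR1 under the gld-1 promoter, and unc-119(ed3), and the germline-depleted worms (DG4700, 3 samples) carried ieSi64 and sacy-1(tn1880). Both ieSi transgenes hold a Cb unc-119(+) copy, and unc-119(ed3) is not listed for the depleted strains, so that mutation and the absence of the tag cannot be told apart within either comparison. A sperm against oocyte comparison in the same table comes from sperm-producing and oocyte-producing worms of another study (Ortiz et al.). The tissue and genotypes of those worms are not given here.

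Each event has, in the authors' deposited table, a false discovery rate q-value and a difference in inclusion level, which is a difference between 2 fractions and runs from -1 to 1. An event is called here where its q-value is under 0.05. The table does not say which group was subtracted from which or which acceptor counts as inclusion, so signs are given as deposited, and none of them is read as more or less use of a named acceptor. Every value is one per comparison: the level in each sample, the spread between replicates and the read depth are unknown, so no value below has an error of its own. All 697 events pass that threshold in at least 1 of the 3 comparisons, so the share called is high through the listing itself.

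The acceptors of these events lay very close together, most often 6 or 9 bases apart. The deposited table gives the longer exon, and the second acceptor was taken from the nearest annotated shorter exon with the same other end, found for 607 of 697 events. The median distance was 7 bases (quartiles 6 and 9, range 1 to 134). Of the 607 pairs, 582 (95.9%) were at most 18 bases apart, 203 were 6 apart (33.4%) and 129 were 9 apart (21.3%). Distances of 7, 8 and 12 bases followed, with 73, 46 and 41 pairs. Of the same 607 distances, 413 were multiples of 3, which keep the reading frame. The downstream acceptor began coding sequence in 584 pairs and 5' UTR in 16, and the other 7 were in noncoding transcripts.

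Among all annotated autosomal exons under 200 bases with such a shorter partner, 586 pairs, the median distance was 8 bases, 82.1% were within 18 bases, 27.8% were 6 apart, 15.9% were 9 apart, and 70.6% were multiples of 3. That set overlaps the listed events. It can include up to 275 of their pairs, those in which both acceptors are annotated, where the longer exon itself is annotated too. The 586 pairs all have both acceptors annotated, so they are not like the 607 event pairs in this respect. Multiples of 3 were 238 of the 275 event pairs with both acceptors annotated, and 175 of the other 332. The autosomal A3SS events with longer exons had a median distance of 9 bases, with 79.1% of 549 pairs within 18 bases. Those on chromosome X had a median of 8, with 85.5% of 131 within 18. The distance of a pair is always shorter than its listed exon, so exons under 200 bases cannot hold the widest pairs. Distances ran up to 134 bases in the short-exon events, 15077 in the longer-exon events and 1541 on chromosome X. The contrast in the share within 18 bases is thus partly set by the limit on exon length. The intron that ends at the downstream acceptor was short in the short-exon events (median 58 bases, 63.6% under 100), against a median of 64 and 57.2% over 94309 annotated autosomal acceptors. No test was made of these differences.

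**Figure D1:**
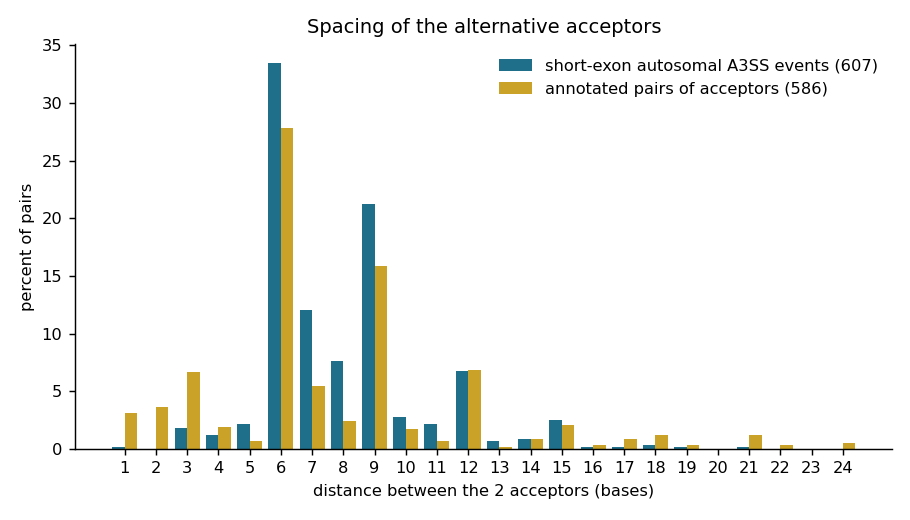
Percent of pairs (vertical axis) at each distance in bases between the upstream and downstream acceptor (horizontal axis, up to 24 bases), for 607 short-exon autosomal A3SS events and for 586 annotated pairs of the same exon length. Both sets peak at 6 and 9 bases, with 33.4% and 21.3% of the events there.

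The upstream acceptor was an annotated acceptor in 330 events and not in 356, and for 11 events no strand could be assigned. Of the 607 pairs, the upstream site was annotated in 275 and not in 332. In those 332 pairs an annotated downstream acceptor is joined to an upstream one that the Ensembl annotation used here does not hold.

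Soma depletion was the first comparison, and almost every called event had the same sign. Of 693 events with a soma value, 428 (61.8%) were called, against a background of 53.1% over all listed events. Over all A3SS events, which include these, the share was 61.9%. Of the 428, 409 had a negative difference and 19 a positive one. The called negative events were 59.0% of the 693, against 41.2% of all listed events, and the called positive events were 2.74%, against 11.8%. Over all A3SS events these shares were 57.3% and 4.60%. The median absolute difference of the called events was 0.182 (quartiles 0.088 and 0.300), next to 0.180 over all called events of the table. A difference of at least 0.2 in size was listed for 195 events and of at least 0.5 for 23. The authors' deposited table lists the q-value of 48 of these events as 0.

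**Figure D2:**
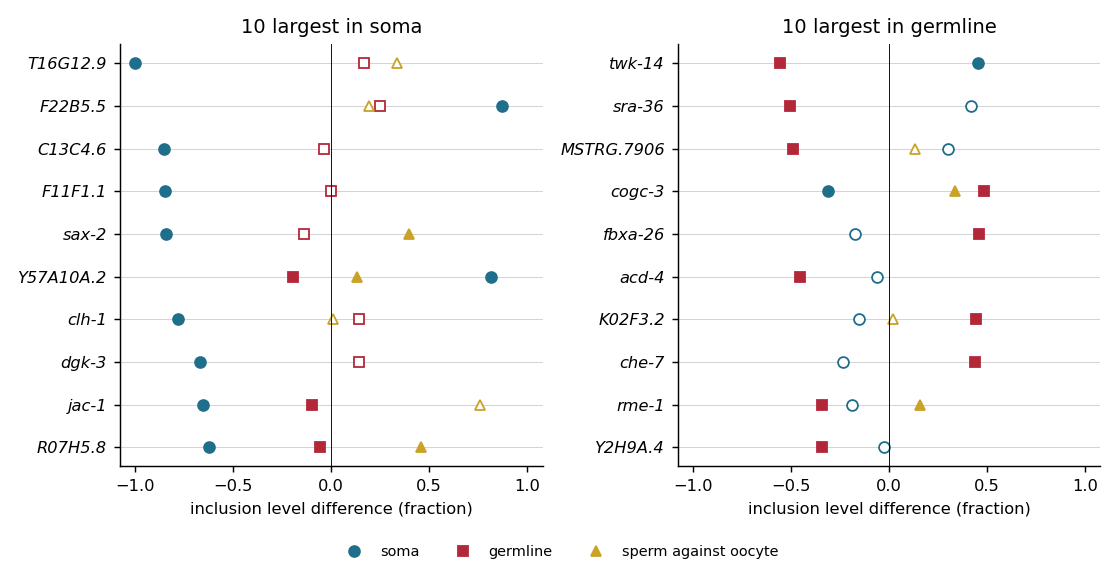
Inclusion level difference (horizontal axis, fraction) of the 10 called events with the largest absolute difference in the soma (left) and in the germline (right), 1 row per event labelled by its gene. Circles are the soma, squares the germline and triangles the sperm against oocyte comparison, filled where the q-value is under 0.05; in the soma panel 8 of 10 circles lie left of 0.

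The largest soma difference was at T16G12.9 (chromosome III, 10077480 to 10077652, exon 4 of 8), where the authors' deposited table gives -1 with a q-value of 2.3e-10. A value of -1 is the end of the scale, at which one group had inclusion in all reads and the other in none. Its 2 annotated acceptors are 6 bases apart in coding sequence, and its germline difference in the authors' deposited table was 0.167 (q-value 1). The gene sax-2, which encodes a Furry-family protein that shapes neurites, had an event at exon 22 of 33 (chromosome III, 5118612 to 5118736) with acceptors 9 bases apart. For sax-2 the authors' deposited table gives -0.846 in the soma (q-value listed as 0), -0.138 in the germline (q-value 0.351) and 0.397 for sperm against oocyte (q-value 9.1e-13). Thus sax-2 passed in the soma and in the sperm against oocyte comparison with opposite signs, and not in the germline.

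The chloride channel gene clh-1 (chromosome II, 11847722 to 11847848) had annotated acceptors 12 bases apart at exon 12 of 16. The authors' deposited table gives clh-1 a soma difference of -0.782 (q-value 2.0e-08) and a germline difference of 0.144 that did not pass (q-value 0.207). For jac-1, which encodes the p120 catenin of cell junctions, the acceptors were 6 bases apart (chromosome IV, 15999150 to 15999314), and the authors' deposited table gives -0.653 in the soma (q-value listed as 0) and -0.098 in the germline (q-value 0.0482). The listed sperm against oocyte difference of jac-1 was larger than either, 0.761, but with a q-value of 1 in the authors' deposited table. The diacylglycerol kinase gene dgk-3 had -0.669 in the soma (q-value 0.00013) in the authors' deposited table, at an exon of 68 bases with no annotated shorter partner.

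C13C4.6 (-0.852, q-value 1.5e-08) and F11F1.1 (-0.849, q-value listed as 0) both had an upstream acceptor that is not annotated, 7 bases before the annotated one, a distance that shifts the frame, and the values are from the authors' deposited table. Neither passed in the germline, where the authors' deposited table gives -0.036 and -0.002. R07H5.8 (-0.626, q-value listed as 0) had acceptors 12 bases apart and also passed in the germline, with -0.055 (q-value 0.0017) in the authors' deposited table.

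A few events went the other way. F22B5.5 (chromosome II, 8453828 to 8453966) had the largest positive soma difference, 0.871 with a q-value of 3.0e-10 in the authors' deposited table, at acceptors 8 bases apart. Y57A10A.2 (chromosome II, 12148477 to 12148651) had 0.815 (q-value 1.4e-07) in the authors' deposited table, at acceptors 7 bases apart. Both upstream acceptors are not annotated. The other 17 positive events ranged down to 0.023 in the authors' deposited table. A second acceptor was found for 13 of the 19 positive events, and in these 6 distances were multiples of 3 and 7 were not, next to 253 and 106 for the negative events.

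Germline depletion called fewer of these events and gave smaller differences. Of 686 events with a germline value, 179 (26.1%) were called, close to the 26.5% background over all listed events. The sign was again mostly negative, in 155 events against 24 positive. The called negative events were 22.6% of the 686 (18.3% of all listed events), and the positive ones 3.50% (8.26%). Over all A3SS events these shares were 23.6% and 3.91%. The median absolute difference was 0.118 (quartiles 0.0715 and 0.192), next to 0.129 over all called events, and 37 events reached 0.2 in size. Only 2 events, those of twk-14 and sra-36, reached 0.5.

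The gene twk-14 encodes a potassium channel of the TWK family. Its event at exon 2 of 9 (chromosome V, 12390526 to 12390630) had annotated acceptors 36 bases apart. In the authors' deposited table twk-14 has a germline difference of -0.555 (q-value 0.00073) and a soma difference of 0.454 (q-value 0.0038), with no value for sperm against oocyte. The chemoreceptor gene sra-36 had -0.503 in the germline (q-value 0.00027) and 0.420 in the soma, where the q-value was 0.329, in the authors' deposited table. An exon on chromosome III (6622552 to 6622655) for which the table names no gene had -0.492 in the germline (q-value 9.2e-05) and 0.302 in the soma (q-value 0.0631) in the authors' deposited table.

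Of the 10 largest germline differences, with ties in size ordered by q-value, 4 were positive. They belonged to cogc-3, a subunit of the Golgi-tethering COG complex (0.484, q-value 0.0299), fbxa-26, an F-box protein (0.461, q-value 0.00017), K02F3.2 (0.446, q-value 0.0217) and che-7, an innexin of gap junctions (0.437, q-value 0.0002), in the authors' deposited table. For none of the 4 was a shorter annotated partner found. Over the 90 events with no such partner, 30 were called in the germline, 18 negative and 12 positive, with a median absolute difference of 0.176. The called germline events were 37 negative and 1 positive at a distance of 6 bases, and 45 negative and 1 positive at 9 bases.

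The other 3 of these 10 were negative. The degenerin channel gene acd-4 had -0.454 (q-value 0.0426), and rme-1, which encodes an EHD-family protein of endocytic recycling, had -0.342 (q-value 0.0197) in the authors' deposited table. Y2H9A.4 also had -0.342 (q-value 0.0296) in the authors' deposited table. All 3 had acceptors 7 bases apart, and none passed in the soma, where the authors' deposited table gives -0.061 for acd-4, -0.191 for rme-1 and -0.026 for Y2H9A.4. A positive event had the same size as those of rme-1 and Y2H9A.4 and a larger q-value. It was in F27C1.11, named after its values were seen, with 0.342 (q-value 0.0433) in the germline and 0.028 in the soma (q-value 1) in the authors' deposited table, at annotated acceptors 9 bases apart.

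The soma and germline comparisons, which share no samples, overlapped in 85 events. These were 19.9% of the soma calls and 47.5% of the germline calls. The 85 were 12.4% of the 685 events with both values, against 7.94% over all listed events. Among autosomal A3SS events with longer exons the share was 15.1%, and over all A3SS events it was 13.0%. In 77 events both differences were negative, in none were both positive, and in 8 the signs were opposite. Over all listed events both were negative in 192 of 236. The median difference of the 85 was -0.156 in the soma and -0.118 in the germline, and the soma value was larger in size in 55. Across all 685 events with both values the 2 differences were only weakly related (Spearman rho 0.08, Pearson r -0.03, given as a description, since events share libraries and depth).

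**Figure D3:**
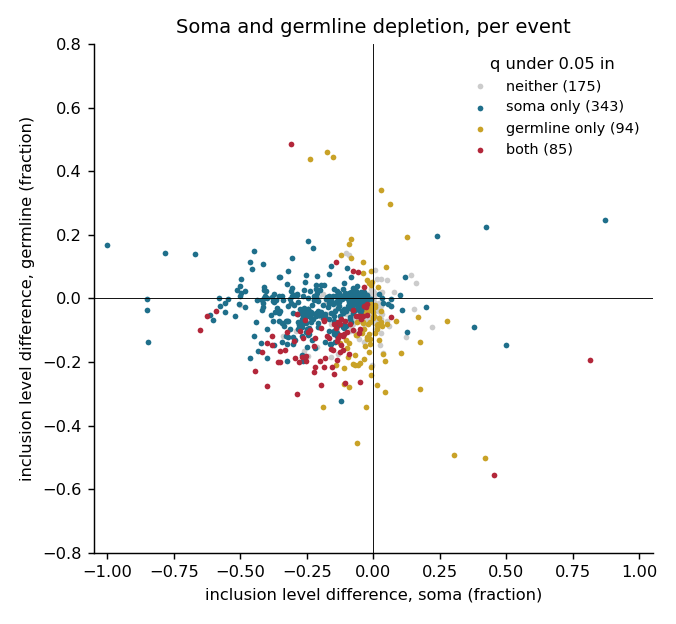
Each point is 1 of the short-exon events, placed by its inclusion level difference in the soma (horizontal axis, fraction) and in the germline (vertical axis, fraction), and coloured by where its q-value is under 0.05. Most of the 85 events called in both lie in the lower left, with 77 negative in both.

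Where an event passed in one depletion only, its value in the other was more often negative, as it was for uncalled events in general. The 343 events called in the soma but not in the germline had a median germline difference of -0.014, with 221 negative, 109 positive and 6 at 0 among 336 with a value. All 507 short-exon events not called in the germline were 354 negative and 147 positive, and over all listed events those called in the soma only were 772 negative and 546 positive of 1334 in the germline. The 94 events called in the germline only had a median soma difference of -0.015, with 60 negative and 32 positive, next to 186 and 77 for all 265 short-exon events not called in the soma. The 507 and 265 uncalled events include the events compared with them. The rest of each set was called for sperm against oocyte alone. Those events were negative in 133 of 171 germline values and 126 of 171 soma values. Every short-exon event was called in some comparison, so no set free of calls was at hand. A lean specific to the events called in the other depletion was therefore not tested. Whether the effects at these events differ between soma and germline was not tested, because the table holds no error for a difference.

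Of the events called in both, R07H5.8 and jac-1 had large soma and small germline differences, as given above. Y40B1A.3 (chromosome I, 13354060 to 13354225) had acceptors 9 bases apart and differences of -0.446 in the soma (q-value 2.0e-05) and -0.229 in the germline (q-value 0.0293) in the authors' deposited table. All 3 of these had the same sign in both comparisons.

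Of the 8 events with opposite signs, 5 were negative in the soma and positive in the germline, and 3 the reverse. Beside twk-14, the reverse held for Y57A10A.2 (0.815 and -0.194, germline q-value 0.0061) and for rde-11, a factor of RNA interference (0.066 and -0.058), with the soma value first, as the authors' deposited table gives them. The event of cogc-3 had -0.311 in the soma (q-value 3.2e-05) and 0.484 in the germline in the authors' deposited table. F08F8.9 had -0.140 and 0.113 in the authors' deposited table, at an exon of 50 bases. The last 3 had differences under 0.1 in size, namely mes-3, of the chromatin-silencing complex with MES-2 and MES-6 (-0.078 and 0.086), gip-1, of the gamma-tubulin complex (-0.059 and 0.083), and M01H9.3 (-0.035 and 0.037) in the authors' deposited table. Those 3 and rde-11 were named after their values were seen.

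The sperm against oocyte comparison gave the opposite sign. Of 599 events with a value, 439 (73.3%) were called, against 65.0% over all listed events and 70.5% over all A3SS events. Positive differences made up 423 of the 439 and negative ones 16, so that called positive events were 70.6% of the 599 (48.4% of all listed events) and called negative ones 2.67% (16.6%). Over all A3SS events these shares were 66.2% and 4.31%. The median absolute difference was 0.167, next to 0.141 over all called events. Of the 439, 175 events were listed through this comparison alone.

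The largest such difference was in mak-2, a kinase gene of the MAPKAP family, with 0.716 (q-value listed as 0) in the authors' deposited table. The event of mak-2 lies in the 5' UTR with acceptors 54 bases apart, and neither depletion called it (-0.016 in the soma and -0.030 in the germline in the authors' deposited table). The gene cpb-1 encodes a CPEB-family RNA-binding protein that sperm formation needs. Its event (chromosome III, 9323177 to 9323294) had 0.636 for sperm against oocyte, -0.293 in the germline (q-value 0.00049) and 0.045 in the soma (q-value 0.763) in the authors' deposited table. The acceptors of cpb-1 are 7 bases apart and the upstream one is not annotated. The genes eri-12 (0.601) and C53B4.4 (0.593) were called in the soma as well, with -0.415 and -0.321, and not in the germline, in the authors' deposited table. The myotubularin phosphatase gene mtm-3 (chromosome III, 3799801 to 3799875, acceptors 12 bases apart) passed in all 3, with 0.586 for sperm against oocyte, -0.399 in the soma and -0.141 in the germline (q-value 1.9e-08) in the authors' deposited table.

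The events called in a depletion and in the sperm against oocyte comparison mostly had opposite signs, which follows largely from the signs of each comparison alone, given above. The soma and sperm against oocyte calls shared 211 events, which were 49.3% of the former and 48.1% of the latter. They were 35.5% of the 595 events with both values, against 21.2% over all listed events and 33.9% over all A3SS events. In 204 of the 211 the soma difference was negative and the other positive, as in 460 of 510 over all listed events, 215 of 226 autosomal A3SS events with longer exons and 23 of 24 on chromosome X. The germline and sperm against oocyte calls shared 125 events, which were 69.8% of the germline calls and 28.5% of the others, and 118 of these had a negative germline and a positive sperm against oocyte difference, as had 276 of 332 over all listed events. The shared events were 21.1% of the 592 with both values, against 13.9% over all listed events and 20.8% over all A3SS events. All 3 comparisons called 72 events. Of those, 68 were negative in the soma, negative in the germline and positive for sperm against oocyte. The same count over all listed events was not made, and these signs too follow largely from those of each comparison alone. Examples chosen after their values were seen are ptc-1, of the Patched receptor family (-0.252, -0.197 and 0.550), and the MAST-family kinase gene kin-4 (-0.279, -0.201 and 0.457), in that order in the authors' deposited table. In both genes the acceptors are annotated and 9 bases apart.

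**Figure D4:**
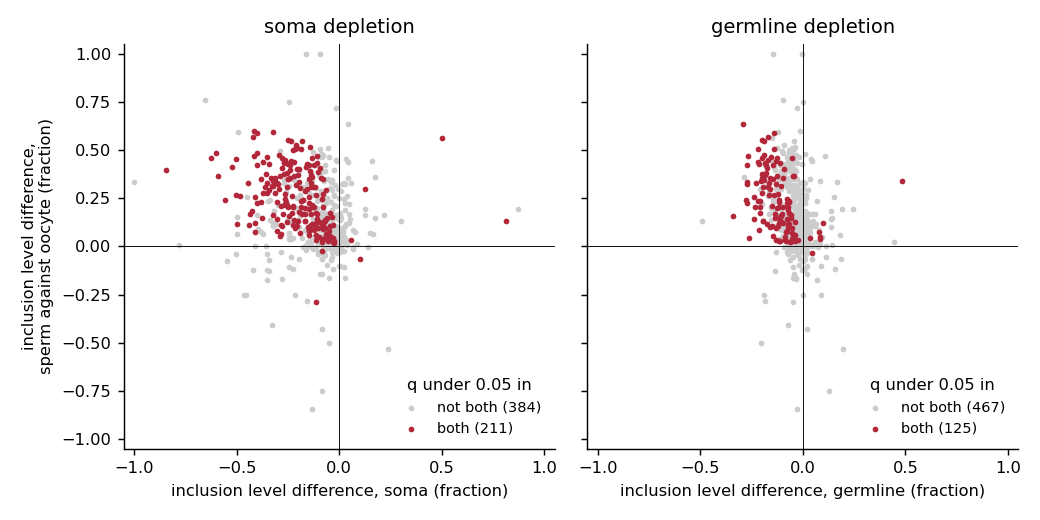
Inclusion level difference for sperm against oocyte (vertical axis, fraction) against that of soma depletion (left) and germline depletion (right; horizontal axes, fraction), 1 point per event, red where both q-values are under 0.05. Red points lie mostly in the upper left, 204 of 211 on the left panel and 118 of 125 on the right.

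Across all events with values the soma and sperm against oocyte differences had a Spearman rho of -0.35 (595 events, Pearson r -0.25), and the germline and sperm against oocyte differences -0.44 (592 events, Pearson r -0.34). These are descriptions, since events share libraries and depth. The 175 events called for sperm against oocyte alone were negative in 126 of 171 with a soma value (median -0.022) and 133 of 171 with a germline value (median -0.029), beside the counts for all uncalled events above. The authors' deposited table attaches the words Oocyte Enriched to 253 of the events and Sperm Enriched to 11. Oocyte Enriched stood where the depletion difference and the sperm against oocyte difference had opposite signs in 252 of 253 events. Sperm Enriched stood where they had the same sign in 8 of 11 events, with 3 opposite. Here the germline difference was used for events called in the germline only and the soma difference otherwise. The exceptions, Y57A10A.2 for the first and cogc-3, mes-3 and gip-1 for the second, were called in both depletions with opposite signs, and their word went with the germline sign. These words thus repeat the relation of the signs and are not a further measurement.

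Whole worms were sequenced for the 2 depletions. In these, a change in the splicing of each cell and a change in the share of RNA from a tissue cannot be told apart. Some sperm transcripts differed in the soma comparison. Of the genes named msp, spe, nspd, sss or ssp, 18 are in the authors' deposited table of expression, and all 18 passed as higher after soma depletion. That table holds 882 genes, each of which passes in at least 1 of the depletions. Of these, 262 (29.7%) passed as higher and 263 as lower in the soma. Sperm genes that passed in neither depletion are not listed. The 18 were thus selected by passing, and the other sperm genes were not seen. The mean FPKM (fragments per kilobase of transcript, scaled to library size) of the 18 sperm genes ran from 0.674 to 8.58 in soma controls and from 2.76 to 23.5 in soma-depleted worms in the authors' deposited table. It ran from 0.72 to 10.5 in germline controls and from 1.70 to 16.4 in germline-depleted worms, so their range was higher after germline depletion as well. The 4 of the 18 that passed in the germline comparison were also higher, where 369 of the 882 passed as higher and 186 as lower. The part of the sperm genes in the splicing differences was not tested.

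Distance between the acceptors went with the size of the difference. Called soma events 6 and 9 bases apart had a median difference of -0.242 (122 events, 121 negative) and -0.233 (83 events, 82 negative). Those 7 and 8 bases apart had medians of -0.123 (37 events) and -0.079 (27 events), and those 12 bases apart -0.148 (32 events, all negative). In the germline the medians were -0.134 at 6 bases (38 events), -0.131 at 7 (23 events), -0.059 at 8 (9 events), -0.127 at 9 (46 events) and -0.079 at 12 (9 events). For sperm against oocyte they were 0.225 at 6, 0.0995 at 7, 0.072 at 8, 0.234 at 9 and 0.216 at 12. The medians at 6 and 9 bases were thus larger in size than those at 7 and 8 in the soma and sperm against oocyte comparisons. In absolute size, the soma medians at 7 and 12 bases were close, 0.143 (33 negative and 4 positive events) and 0.1485. In the germline 7 bases stood level with 6 and 9, and the median at 12 bases was smaller in size than these.

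**Figure D5:**
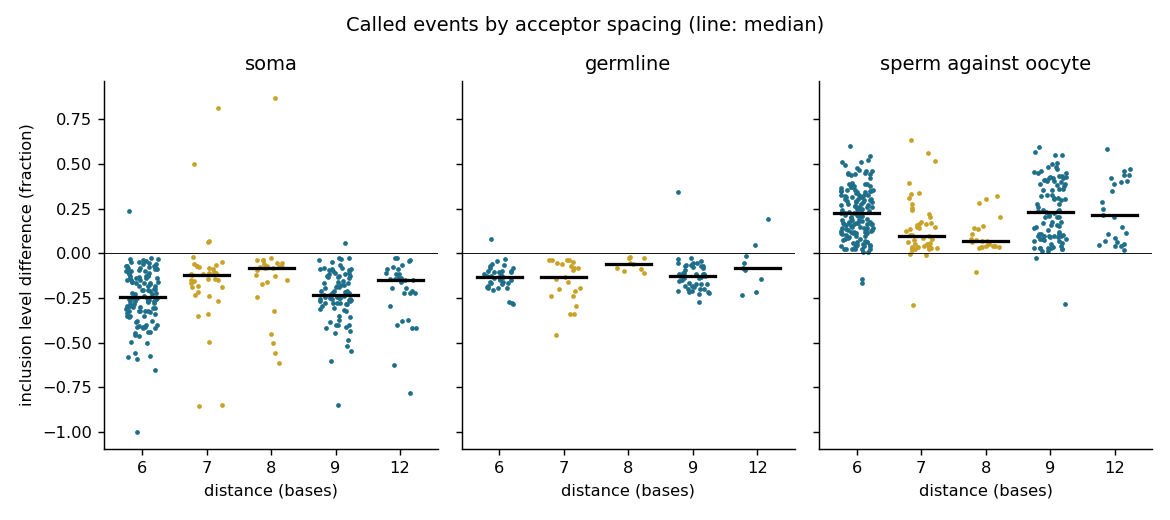
Inclusion level difference (vertical axis, fraction) of called events by distance between the acceptors (horizontal axis, bases), 1 panel per comparison, with blue points for multiples of 3, yellow points for other distances and a line at each median. In the soma the medians at 6 and 9 bases (-0.242 and -0.233) lie below those at 7 and 8 (-0.123 and -0.079).

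Over all distances, the median absolute difference of called soma events was 0.211 where the distance was a multiple of 3 (259 events) and 0.111 where it was not (113 events). In the germline the same medians were 0.124 (95 negative and 8 positive events) and 0.0855 (46 events), and for sperm against oocyte 0.211 (305 events) and 0.082 (100 events). The share called in the soma was 62.7% of the first class and 58.2% of the second. Frame and annotation went together, since the upstream acceptor was annotated in 238 of 413 frame-keeping pairs and in 37 of 194 others. Among pairs with an annotated upstream acceptor, the soma medians were 0.234 (151 called events, multiples of 3) and 0.148 (17 events, other distances). Among pairs without one, they were 0.154 (108 events) and 0.103 (96 events). Thus in the soma both features went with the size of the difference within each class of the other. In the germline the first pair of medians was 0.1395 (72 events) and 0.115 (13 events). The second was 0.086 (31 events) and 0.079 (33 events), so the frame classes lay close there. For sperm against oocyte they were 0.2415 (190 events) and 0.1165 (22 events), and 0.130 (115 events) and 0.074 (78 events). These are descriptions over events and carry no test.

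Exon length within the short range made little difference to the signs. Exons of 50 to 99 bases had 110 soma calls (104 negative, median absolute difference 0.160), those of 100 to 149 bases 196 (189 negative, 0.185) and those of 150 to 199 bases 121 (115 negative, 0.190). Just under the limit, the events of rev-1, wapl-1 and fcp-1, each with an exon of 199 bases, had soma differences of 0.023, -0.077 and -0.001 in the authors' deposited table. None of these was called in the soma. Just over it were 7 events with an exon of 200 bases, and the 3 with the smallest q-values, those of nhr-210, lst-6 and T08B6.2, had -0.239, -0.267 and -0.174 in the authors' deposited table. These were called in the soma and were picked by q-value, unlike those at 199 bases. The values are therefore no comparison of the 2 sides of the limit. The signs held on every autosome, with called soma events negative in 77 of 80 on chromosome I, 68 of 74 on II, 84 of 84 on III, 80 of 83 on IV and 100 of 107 on V. The long-exon autosomal events were negative in 385 of 431 soma calls and 203 of 233 germline calls, and those on chromosome X in 129 of 138 and 17 of 25. Differences between these sets were not tested.

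The 697 events fell in 618 genes as the table names them, of which 67 had more than 1 event, and 28 events shared the other end of their exon with another of the set. Of 29 genes with several soma calls, 27 had a single sign. Since 409 of all 428 soma calls were negative, a single sign within a gene follows largely from that share. The exceptions were usp-50, with -0.503 and 0.128 in the authors' deposited table at exons that begin 2 bases apart, and the locus named dmsr-16 and T27B2.2 together, with -0.462 and 0.423, named after its values were seen. After parg-1 with 5 events, 9 genes had 3 events each, and the 4 described here have the smallest q-values among them. The gene parg-1, for a glycohydrolase that removes poly(ADP-ribose), had 5 events on chromosome IV between 8747766 and 8748271, all called in the soma and all negative (-0.233, -0.148, -0.099, -0.149 and -0.146 in the authors' deposited table). Of the parg-1 events, 4 end at the same base, so they are competing starts of 1 exon and not separate observations. The bromodomain gene bet-1 had 3 events at separate exons, with soma differences of -0.156, -0.382 and -0.442 and germline differences of -0.215, -0.118 and -0.074 in the authors' deposited table. All 3 bet-1 events passed in the soma and the first 2 in the germline. The gene daf-16, for the FOXO transcription factor of insulin signalling, had 3 events with soma differences of -0.101, -0.378 and -0.027 and germline differences of -0.131, -0.007 and 0.003 in the authors' deposited table. Of the daf-16 events, the first passed in the germline only of the depletions and the second in the soma only. The third events of etr-1 (-0.022 in the soma) and usp-50 (-0.033) passed in neither depletion in the authors' deposited table.

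Host genes were then read against 5 lists of gene functions, chosen with earlier results of these data known. The counts are small and are to be read beside the shares of all short-exon events that were called, 61.8% in the soma, 26.1% in the germline and 73.3% for sperm against oocyte, and beside the prevailing signs, negative, negative and positive. No list is set apart by them. The list of 102 spliceosome and splicing factor genes had 8 events in 6 genes, of which 4 passed in the soma and 2 in the germline, all negative. Of these, etr-1, a CELF-family RNA-binding protein of muscle, had an event with acceptors 6 bases apart at -0.558 in the soma (q-value listed as 0) and another with acceptors 9 bases apart at -0.262 (q-value 4.3e-12), while neither passed in the germline (both -0.042), in the authors' deposited table. The event of rnp-2, an RNA-binding protein of the small nuclear ribonucleoproteins, passed in the germline with -0.029 (q-value 2.1e-06) and had 0 in the soma in the authors' deposited table.

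The list of 92 germline and embryo genes had 9 events in 9 genes. All 9 passed for sperm against oocyte with a positive difference (median 0.090), 4 passed in the soma, all negative, and 3 in the germline, 2 of them negative. The RNA-binding translational regulators mex-3 and gld-1 had germline differences of -0.055 (q-value 0.023) and -0.115 (q-value 0.00049) and soma differences of -0.067 (q-value 1.3e-06) and -0.064 (q-value 0.0676) in the authors' deposited table. Both have acceptors 9 bases apart. The sex-determination gene fem-1 had -0.051 in the soma (q-value 0.0009) in the authors' deposited table.

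The list of 89 muscle and cytoskeleton genes had 3 events, 2 of them called in the soma and none in the germline. The event of itr-1, the inositol trisphosphate receptor that releases stored calcium, was at exon 22 of 32 (chromosome IV, 7692289 to 7692473), with -0.547 in the soma (q-value listed as 0) and -0.001 in the germline in the authors' deposited table. Its acceptors are 9 bases apart and the upstream one is not annotated. The muscle LIM-domain gene alp-1 had -0.160 in the soma (q-value 0.0019) and -0.143 in the germline (q-value 0.211) in the authors' deposited table.

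The list of 132 translation genes had 4 events, with 3 soma calls and 1 germline call, all negative. They included ifg-1, the scaffold of the cap-binding complex (-0.193, q-value 4.0e-07), and eif-3.G, of an initiation factor (-0.078, q-value 0.0467), in the soma in the authors' deposited table. An event at a locus named for both nra-2 and rps-19 had -0.186 in the soma and -0.217 in the germline in the authors' deposited table, and which gene it belongs to is uncertain. The list of 78 ion channel and transporter genes had 5 events, with 3 soma calls, those of clh-1, twk-14 and the sodium-calcium exchanger gene ncx-1 (-0.118, q-value 5.4e-05, in the authors' deposited table).

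Of the host genes, 10 were in the authors' deposited table of expression, which lists 882 genes. They held 12 of the 697 events. The same count over all listed splicing events was not made, so this one is not read as low or high. C13C4.6, one of the largest soma events, had 3.60 FPKM in soma controls and 1.53 in soma-depleted worms (log2 fold change -1.23, DESeq2 adjusted p = 4.5e-06) in that authors' deposited table. F11F1.1, the other event of like size, rose to 11.3 FPKM in soma-depleted worms (log2 fold change 1.04, DESeq2 adjusted p = 6.8e-10) in the authors' deposited table. The 2 genes thus had splicing differences of nearly the same size and sign with expression changes of opposite sign. R10E9.3, with a soma splicing difference of -0.481, had 11.8 and 27.7 FPKM, and abt-2, an ABC transporter gene with -0.494, had 1.69 and 3.95 FPKM, in the authors' deposited table.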

How the data were processed

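The files used hold comparisons and group means, not values per sample. Per the file headers, the authors deposited a false discovery rate q-value and an inclusion level difference (recorded here as a score from -1 to 1) for each splicing event, on StringTie models in WBCel235/ce11 coordinates. A second deposited table holds mean FPKM per group, log2 fold changes, adjusted p-values and a mean count signal over all samples, with identifiers of Ensembl 97. DESeq2 1.26.0, SAMtools 1.7, STAR 2.7.2a, cutadapt 1.18 and Trim Galore 0.6.0 are named in the submitters' processing notes. Of the splicing caller, the name was not given in the sources used here.

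Listed starts count from 0 (the start plus 1 met an annotated exon end in 338 of 347 events on the minus strand, the start itself in none), and coordinates are printed counted from 1. Strand came from the named gene (671 events) or from overlapping protein-coding genes (15). Exons, acceptors and coding regions were read from Ensembl release 115, which annotates that assembly. An exon number is that of 1 annotated transcript. The site finder was checked on simulated annotation. Bases at the sites were not analysed here. Gene identifiers matched for 692 of 697 events.

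No test across samples could be run, so depth and replicate error are unknown and the q-values are the authors' own. Members and gene lists were chosen with earlier results of these data known. Events named are the 10 largest calls in soma and in germline, the 5 largest for sperm against oocyte, up to 6 called in both depletions, up to 4 with opposite signs, up to 3 per list, those of 5 genes with most events, and 3 on each side of the 200-base limit, with ties ordered by q-value and then table order. Alternatives were a q-value under 0.01, minimum differences of 0.1 and 0.2, 1 event per gene, exon limits of 100 and 150 bases and, chosen after seeing the data, events with the same other exon end counted once. Python 3.11.15, numpy 2.4.6, pandas 2.3.3 and matplotlib 3.10.9 were used.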

Additional observations from a re-analysis of the deposited data

How the results depend on the processing

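Of 60 recomputed values, 42 stayed within 1.5 times the reported one, and the other 18 fell in number as the limits tightened, which leaves fewer events by construction. The sign did not depend on the setting: the negative share of called events ran from 94.6% to 96.6% in the soma and from 83.8% to 90.9% in the germline, and the positive share for sperm against oocyte from 95.5% to 99.0%. With a q-value under 0.01, germline calls fell from 179 to 99 (90 negative) and events called in both depletions from 85 to 42. At a difference of at least 0.1 these were 105 (92 negative) and 49. At a difference of at least 0.2 there were 195 soma calls (188 negative), 37 germline calls (31 negative), 8 in both and 194 for sperm against oocyte. With exons under 100 bases there were 111 soma calls (105 negative), 53 germline calls (46 negative), 23 in both and 111 for sperm against oocyte. Taking the farthest annotated partner changed the distance in 12 of 607 pairs and left the median at 7 bases. The acceptor sequence comparison was not run. No paired analysis was possible because the files used hold no value per sample, and for the same reason no replicate could be left out. Depth is unknown, so an event that was not called may lie below what these libraries could detect.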
